A study of Mus musculus with 6 samples.

Results

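The genes described here are the Wnt ligands, their cell surface receptors and the secreted or membrane proteins that tune them, as measured in the epithelium of the mouse small intestine late in gestation (E18.5, days of embryonic development). They were chosen by name: all Wnt, Frizzled (Fzd), Dkk, Sfrp and R-spondin (Rspo) genes with a numbered symbol, plus Lrp5, Lrp6, Wif1, Znrf3, Rnf43, Lgr4, Lgr6 and Notum. This gave 49 members among the 19938 genes with a probe set of their own, namely 19 Wnt ligands, 10 Frizzled receptors, 2 Lrp coreceptors, 4 R-spondins, 2 R-spondin receptors, 2 E3 ligases, 4 Dkk and 4 Sfrp antagonists, and the 2 inhibitors Wif1 and Notum. Total RNA of isolated epithelial cells was hybridised to 6 Affymetrix Mouse Gene 1.0 arrays. Of these, 3 carried material from animals with a double conditional knockout (cKO) of Gata4 and Gata6 (labelled Gata4Gata6 cKO) and 3 carried control material, all taken at E18.5. GATA4 and GATA6 are DNA-binding regulators of endoderm-derived organs. The Cre driver, the deleted exons, the controls' genotype and the number of animals behind each array were not stated in the sources used here. The p-values therefore measure the spread between these arrays, which may be technical.

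Wnt proteins are secreted lipid-modified signals. They bind a Frizzled receptor together with Lrp5 or Lrp6, and in the canonical branch this stabilises beta-catenin, which then acts with TCF factors on target genes. R-spondins, through Lgr receptors, remove the E3 ligases Znrf3 and Rnf43, which otherwise clear Frizzled from the membrane, while Dkk, Sfrp, Wif1 and Notum restrain the ligands or their receptors. In the gut this signalling is known for maintaining the progenitors between the villi and later in the crypts, with ligands supplied by both epithelium and mesenchyme.

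The labels were first checked against the targeted genes. Gata4 read 11.34, 11.39 and 11.51 on the arrays labelled cKO and 10.95, 10.93 and 10.96 in controls (log2 levels). Gata6 read 12.72, 12.69 and 12.72 on the arrays labelled cKO, against 12.23, 12.28 and 12.27 on the controls. Both were thus higher, not lower, on the arrays labelled cKO, by 0.47 ± 0.0748 and 0.45 ± 0.0646 (log2 change ± SE, limma adjusted p = 0.0101 and 0.0067). Without both cKO 2 and control 3 the sizes were 0.49 and 0.46, and neither passed (adjusted p = 0.0646 and 0.0503). A probe set of this design sums probes along a gene, so exons outside a deletion would still be read. Why both genes read higher was not tested. The check did not bear out the labels, and every direction given here rests on the labels alone. The epithelial marker list, which includes Epcam, Cdh1 and Krt8, averaged 12.08 to 12.25 on the arrays labelled cKO and 11.86 to 11.96 on the controls. Hepatocyte markers averaged 13.07 on cKO 2 and 11.66 on control 3, and results are also given without those 2 arrays. Control 1 came next at 10.29, with 8.44 to 8.92 on the remaining arrays. Erythroid markers averaged 11.71 on cKO 2, 9.67 on control 3 and 9.62 on control 1, against 7.72 to 8 on the remaining arrays. The fit without cKO 2 and control 3 thus keeps control 1, which also read above the remaining arrays in both lists.

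On the arrays labelled cKO, 4 of the 49 members rose, 2 fell and 43 did not pass. The rises were those of the ligand gene Wnt5a, the receptor gene Fzd3, the R-spondin receptor gene Lgr4 and the E3 ligase gene Rnf43, and the falls were those of the receptor gene Fzd4 and the antagonist gene Sfrp5. The called share of 12.2% stood beside 12.9% of all genes tested (5.52% higher and 7.42% lower), so the number of calls in this group of genes was near the background. The median change was −0.04 over the members and −0.01 over all genes. Groups did not overlap for 14 members, 7 with all arrays labelled cKO above and 7 with all below, which is 28.6% of the members against 32.6% of all genes (14.3% above and 18.3% below). An unadjusted p under 0.05 was reached by 14 members, and by 26.6% of all genes. Throughout, a change is the log2 level of the arrays labelled cKO minus that of the controls (n = 3 and 3 arrays, with SE), and adjusted p-values come from limma with Benjamini-Hochberg adjustment over 19938 genes at a threshold of 0.05.

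The falls were the firmer of the calls. Sfrp5 and Fzd4 passed with any 1 array left out, and the lower count was 2 in each of those fits except without cKO 1, where Wnt1 made it 3. The higher count was 0 without cKO 3 or control 2, 1 without cKO 1 or control 3, 2 without cKO 2 and 3 without control 1. With cKO 2 and control 3 both left out, 2 members were higher (Wnt5a and Rnf43) and 3 were lower (Fzd4, Fzd5 and Sfrp5).

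**Figure D1:**
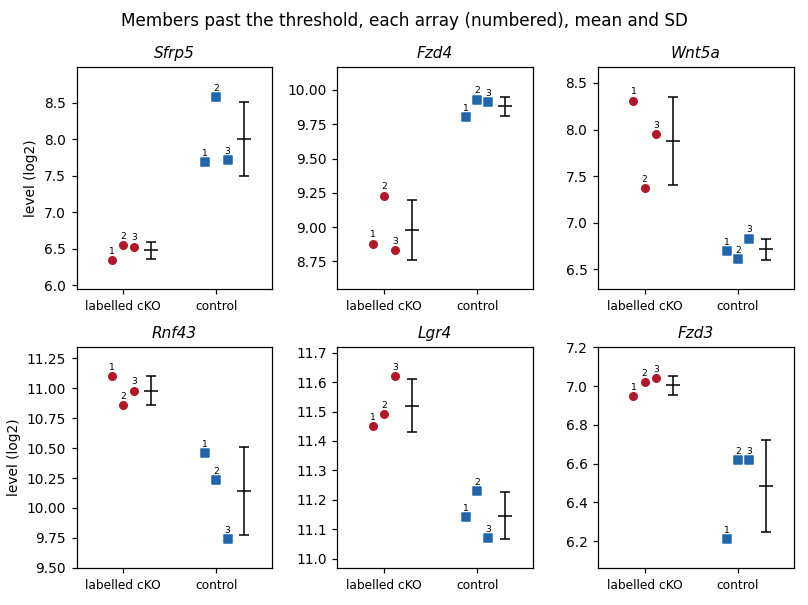
Log2 level of the 6 members past the threshold, with 1 numbered point per array (red circles, labelled cKO, left; blue squares, control, right) and the mean ± SD of 3 arrays beside each group; the vertical axes differ and do not start at 0. The groups do not overlap in any panel, and the spread among controls is widest for Sfrp5, from 7.69 to 8.58.

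Sfrp5 (probe set 10467744, chromosome 19) encodes a secreted protein with a Frizzled-like domain that binds Wnt ligands. It read 6.35, 6.55 and 6.53 on the arrays labelled cKO and 7.69, 8.58 and 7.72 in controls. The arrays labelled cKO lay close together and all below the controls, among which control 2 was highest. The change was −1.52 ± 0.243, 2.87-fold lower (adjusted p = 0.0101), and ran from −1.67 to −1.23 with 1 array left out. Sfrp5 was dim, at percentile 26.9 of all genes by mean level, as were Wnt5a (28.4) and Fzd3 (16.7), described below. No detection call was used, and how far background reading bears on their fold changes was not tested. Fzd4 (probe set 10554808, chromosome 7), a receptor for Wnt ligands and for Norrin, read 8.88, 9.23 and 8.83 on the arrays labelled cKO, against 9.80, 9.93 and 9.91 on the controls. All arrays labelled cKO were below all controls, with cKO 2 nearest to them. The change was −0.90 ± 0.122, 1.87-fold lower (adjusted p = 0.00535), and ran from −1.03 to −0.82 with 1 array left out. Fzd4 is also known from endothelium, and the 6 endothelial markers averaged 7.06, 8.40 and 6.68 on the arrays labelled cKO and 7.24, 7.15 and 7.91 in controls, with overlapping groups and 0 of 6 called under limma, also at an unadjusted p under 0.05. Of all genes, 12.9% were called and 26.6% had an unadjusted p under 0.05 in limma. The part of endothelial RNA in the Fzd4 change was not tested. In RNA of mixed cells, fewer cells of a type and less RNA per cell cannot be told apart.

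The promoters of both genes, and the downstream one of Rnf43, are shown because they carry, or lack, the sequence words that GATA factors bind. Each is 300 bases of RefSeq sequence (GRCm38.p6), from 250 bases before to 50 bases after an annotated transcript start, 5′ to 3′ on the gene's strand. Capitals mark the GATA words searched on either strand, which are the word AGATAA, the word AGATAG, the word TGATAA and the word TGATAG.
Sfrp5, chr19:42202203-42202502, minus strand: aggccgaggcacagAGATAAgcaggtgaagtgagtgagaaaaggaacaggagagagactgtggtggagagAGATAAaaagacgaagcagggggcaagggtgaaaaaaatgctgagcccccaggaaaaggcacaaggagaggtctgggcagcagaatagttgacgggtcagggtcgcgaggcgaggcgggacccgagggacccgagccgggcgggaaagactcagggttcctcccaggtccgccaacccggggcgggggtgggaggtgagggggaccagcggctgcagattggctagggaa
Fzd4, chr7:89404116-89404415, plus strand: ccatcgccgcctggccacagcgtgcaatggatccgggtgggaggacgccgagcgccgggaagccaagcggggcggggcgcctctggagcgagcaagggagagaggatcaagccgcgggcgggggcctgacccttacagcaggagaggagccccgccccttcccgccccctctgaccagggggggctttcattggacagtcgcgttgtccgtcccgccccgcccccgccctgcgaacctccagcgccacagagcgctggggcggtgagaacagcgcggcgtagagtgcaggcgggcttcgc
Rnf43, chr11:87699647-87699946, plus strand: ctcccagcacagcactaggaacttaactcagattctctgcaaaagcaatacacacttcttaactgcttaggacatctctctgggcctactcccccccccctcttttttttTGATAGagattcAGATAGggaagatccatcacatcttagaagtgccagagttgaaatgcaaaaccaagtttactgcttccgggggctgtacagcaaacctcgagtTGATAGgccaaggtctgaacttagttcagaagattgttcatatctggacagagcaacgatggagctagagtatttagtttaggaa
The Sfrp5 window holds AGATAA at 236 and at 180 bases before the start. The Fzd4 window holds none of the words, and the Rnf43 window holds 3, at 140, 128 and 35 bases before the start. The windows of the other Rnf43 start and of Lgr4 hold none. Windows were found for 31 of the 49 members, 35 windows in all, and 6 of them (17.1%) hold a GATA word, against 29.8% of 32851 windows of all genes. Besides those of Sfrp5 and Rnf43, these were windows of Wnt11, Wnt2, Wnt8b and Fzd1, genes that did not pass. No window was found for the called members Wnt5a and Fzd3. The TCF word CTTTGAA or the word CTTTGAT was found on either strand in 3 member windows (8.57%), those of Wnt11, Wnt5b and Dkk1, against 8.65% of all windows. No GATA word overlapped a TCF word in a member window. The member windows were richer in G and C (median 66.7% against 52.7%), and a match is a description of letters only.

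Among the ligands, Wnt5a (probe set 10413482, chromosome 14) was the only 1 of 19 that passed (5.26%, beside 12.9% of all genes). WNT5A mostly signals outside the beta-catenin branch and in the embryonic gut is known from the mesenchyme, where it acts in gut elongation. It read 8.31, 7.37 and 7.95 on the arrays labelled cKO and 6.70, 6.61 and 6.83 in controls. The controls lay within a narrow range below all arrays labelled cKO, which themselves spread widely. The change was 1.16 ± 0.23, 2.24-fold higher (adjusted p = 0.0219), and the call was lost without cKO 3 or without any 1 control array (adjusted p up to 0.0848). Mesenchymal markers, summed over 14 genes on the linear scale, reached log2 levels of 13.46, 13.45 and 12.54 on the arrays labelled cKO, against 12.51, 12.19 and 12.32 on the controls. Of these 14 genes 0 passed under limma (9 had an unadjusted p under 0.05), 7 had all arrays labelled cKO above the controls, 2 had all below, and no deposited value was 0. Groups did not overlap for 64.3% of this list, against 32.6% of all genes (14.3% above and 18.3% below). An unadjusted p under 0.05 in limma was reached by 26.6% of all genes, and 12.9% of all genes passed the threshold. The changes of the 14 genes ran from −0.55 to 1.85, with a median of 0.50. The part of mesenchymal RNA in the Wnt5a rise was not tested.

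The other 18 ligands did not pass, and their changes ran from −0.45 to 0.15. Wnt4, made in several developing epithelia, read 9.63, 9.72 and 9.80 on the arrays labelled cKO and 10.36, 9.61 and 9.76 in controls. Control 1 stood above the other 5 arrays, which overlapped (change −0.19 ± 0.195, adjusted p = 0.594). Wnt11, a ligand linked to cell movements, read 9.48, 9.45 and 9.41 on the arrays labelled cKO and 9.21, 9.28 and 9.39 in controls. Its groups were separated by less than the spread within a group (change 0.15 ± 0.077, adjusted p = 0.27). Wnt3, the canonical ligand that Paneth cells of the adult crypt are known to make, was described after its values were seen. It read 7.82, 7.79 and 7.82 on the arrays labelled cKO, below the 7.97, 8.09 and 8.25 of the controls (change −0.29 ± 0.09, adjusted p = 0.0895). Wnt1, known from the neural tube, had a change of −0.45 ± 0.206 (adjusted p = 0.225), and passed without cKO 1, where the change was −0.67 (adjusted p = 0.0374). The mesenchymal gut ligand Wnt2b had a change of 0.08 ± 0.112 and the epithelial ligands Wnt6 and Wnt9b of −0.06 ± 0.0778 and −0.03 ± 0.0854. The remaining ligand genes, Wnt2, Wnt3a, Wnt5b, Wnt7a, Wnt7b, Wnt8a, Wnt8b, Wnt9a, Wnt10a, Wnt10b and Wnt16, had changes of −0.24 (Wnt8b) to 0.13 (Wnt2), and the plot of levels by array shows overlapping groups for each of them.

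**Figure D2:**
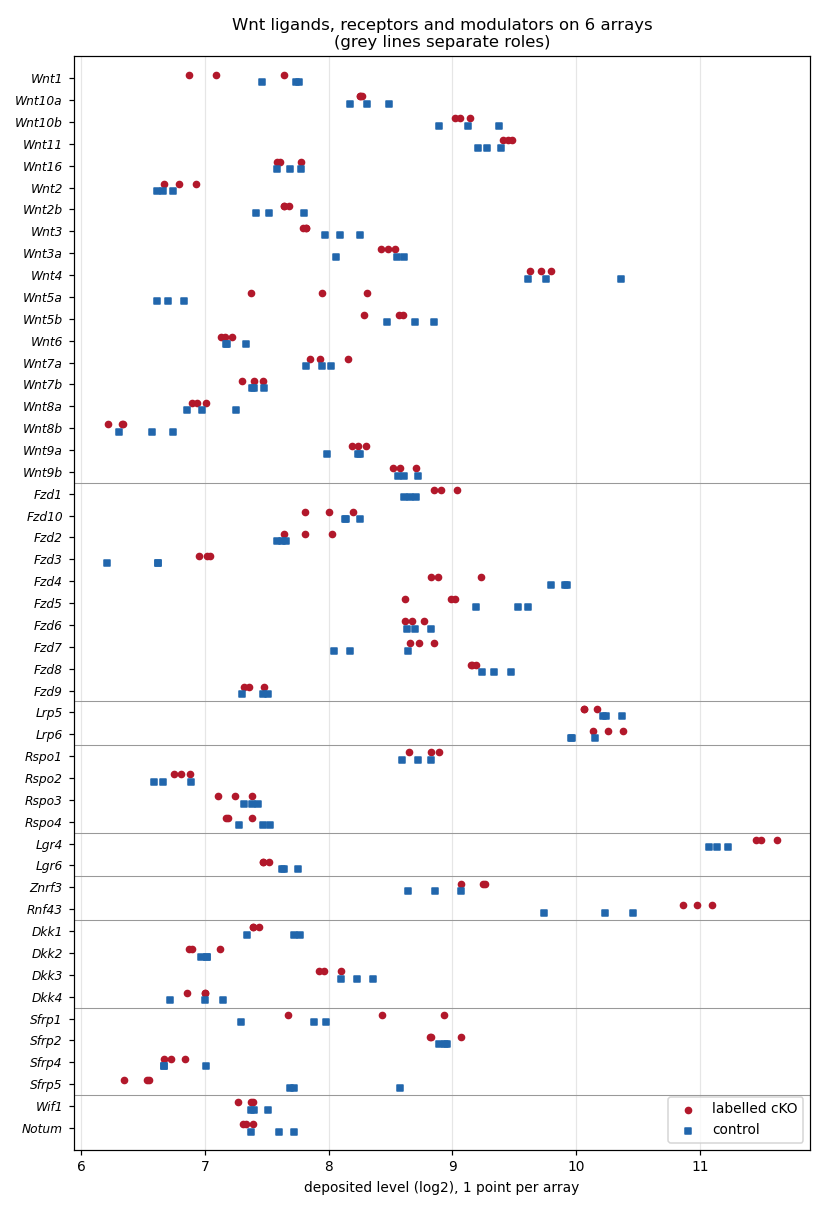
Deposited log2 level of the 49 members on each array (red circles, labelled cKO; blue squares just beneath, control), ordered by role with grey lines between roles. Rows are read within a gene only, because probe sets differ in brightness. Of the members past the threshold, Sfrp5 and Fzd4 stand apart to the left in the arrays labelled cKO, and Wnt5a, Fzd3, Lgr4 and Rnf43 to the right. Of those that did not pass, Wnt3, Fzd5, Fzd8, Lrp5 and Lgr6 also lie apart to the left, and Wnt11, Fzd1 and Fzd7 to the right.

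Frizzled receptors moved in both directions. Besides the fall of Fzd4, Fzd3 (probe set 10420846, chromosome 14), a receptor known for its role in planar polarity and axon guidance, read 6.95, 7.02 and 7.04 on the arrays labelled cKO and 6.21, 6.62 and 6.62 in controls. All arrays labelled cKO were above the controls, where control 1 was lowest. The change was 0.52 ± 0.127 (1.43-fold higher, adjusted p = 0.0443), and the call was lost on leaving out any array but control 1 (adjusted p up to 0.128). Fzd5, Fzd7 and Fzd1 were picked after their values were seen, for an unadjusted p under 0.05. Fzd5, which is needed in the mouse gut for Paneth cell maturation, read 8.99, 8.62 and 9.02 on the arrays labelled cKO, all below the 9.53, 9.61 and 9.19 of the controls. Its change of −0.57 ± 0.157 did not pass (adjusted p = 0.066), nor with any 1 array left out, but did without both cKO 2 and control 3 (adjusted p = 0.0316). Fzd7, the main Frizzled of adult mouse intestinal stem cells, read 8.73, 8.85 and 8.66 on the arrays labelled cKO and 8.64, 8.17 and 8.04 in controls. Control 1 lay next to cKO 3, and the change was 0.46 ± 0.163 (adjusted p = 0.127), which passed only without control 1 (0.64, adjusted p = 0.0218). Fzd1 had a change of 0.27 ± 0.0802 (adjusted p = 0.0792). Fzd8 read 9.15, 9.16 and 9.19 on the arrays labelled cKO, against 9.24, 9.34 and 9.47 on the controls, a change of −0.18 ± 0.0825 (adjusted p = 0.22). Fzd2, Fzd6, Fzd9 and Fzd10 had changes of 0.21, −0.03, −0.04 and −0.17 and did not pass. Summed on the linear scale, the 10 Frizzled genes reached log2 levels of 11.83, 11.87 and 11.83 on the arrays labelled cKO, against 12.02, 12.07 and 12.01 on the controls, a description in which the brighter probe sets weigh most. Their mean log2 level was 8.35, 8.37 and 8.36 on the arrays labelled cKO and 8.37, 8.44 and 8.39 in controls, with groups that met at 8.37.

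The 2 coreceptor genes had changes of opposite sign and neither passed. Lrp5 read 10.06, 10.17 and 10.06 on the arrays labelled cKO, below the 10.24, 10.22 and 10.37 of the controls (change −0.18 ± 0.0786, adjusted p = 0.208). Lrp6 read 10.14, 10.38 and 10.26 on the arrays labelled cKO and 9.96, 9.97 and 10.15 in controls, and the groups overlapped by a margin of 0.01 (change 0.23 ± 0.0965, adjusted p = 0.186).

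Among the genes that set the receptor level at the membrane, Rnf43 and Lgr4 rose while Znrf3 and Lgr6 did not pass. Rnf43 (probe set 10380116, chromosome 11), a transmembrane E3 ligase that removes Frizzled and is itself induced by Wnt signalling, read 11.10, 10.86 and 10.98 on the arrays labelled cKO and 10.46, 10.23 and 9.74 in controls. The arrays labelled cKO lay together above the controls, of which control 3 was lowest. The change was 0.84 ± 0.187 (1.79-fold higher, adjusted p = 0.0333), and the call was lost without cKO 1, cKO 3 or control 2 (adjusted p up to 0.0953). Its relative Znrf3 read 9.26, 9.25 and 9.07 on the arrays labelled cKO, against 9.07, 8.86 and 8.64 on the controls. The groups met at 9.07, and the change of 0.34 ± 0.126 did not pass (adjusted p = 0.149). Lgr4 (probe set 10474419, chromosome 2), the R-spondin receptor found widely in epithelia, read 11.45, 11.49 and 11.62 on the arrays labelled cKO and 11.14, 11.23 and 11.07 in controls. The groups did not overlap and the change was 0.37 ± 0.0832 (1.30-fold higher, adjusted p = 0.0331), but the call was lost on leaving out any 1 array (adjusted p up to 0.111). Lgr6 read 7.52, 7.47 and 7.47 on the arrays labelled cKO, below the 7.62, 7.64 and 7.75 of the controls (change −0.18 ± 0.0718, adjusted p = 0.165). Their relative Lgr5, no member but the marker of gut stem cells, changed by 1.39 ± 0.328 (adjusted p = 0.0404), a call kept only without cKO 2 among the fits with 1 array left out. The changes of the 10 epithelial markers ran from −0.11 to 0.64, with a median of 0.27. Of these markers 3 were called higher and 0 lower, 30% beside the 12.9% of all genes. The part of epithelial RNA in the Lgr4 and Rnf43 rises was not tested.

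Of the R-spondin ligand genes, 0 of 4 passed, and 0 had an unadjusted p under 0.05 in limma, beside 12.9% and 26.6% of all genes. With 4 genes, a count of 0 cannot be told from these shares. Rspo1 read 8.89, 8.83 and 8.65 on the arrays labelled cKO and 8.59, 8.83 and 8.72 in controls, with overlapping groups. Rspo4 read 7.38, 7.19 and 7.17 on the arrays labelled cKO and 7.47, 7.53 and 7.28 in controls. The changes of the 4 genes ran from −0.18 (Rspo4) to 0.10 (Rspo2), with −0.13 for Rspo3, the main R-spondin of the adult mouse crypt's stroma.

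Among the secreted antagonists besides Sfrp5, 0 of 9 passed under limma, and Dkk3 alone had an unadjusted p under 0.05 (0.0468). Of all genes, 12.9% passed and 26.6% had an unadjusted p under 0.05, and the called Sfrp5 was set aside before this count. Sfrp1 read 8.93, 8.43 and 7.67 on the arrays labelled cKO and 7.98, 7.29 and 7.88 in controls. The SE of its change was the largest among the members. Its change was 0.63 ± 0.341 (95% interval −0.19 to 1.45, adjusted p = 0.308). Sfrp2 read 9.07, 8.83 and 8.82 on the arrays labelled cKO and 8.96, 8.89 and 8.94 in controls, and Sfrp4 had a change of −0.04 ± 0.116. Dkk1, which blocks Lrp5 and Lrp6, read 7.39, 7.39 and 7.44 on the arrays labelled cKO and 7.34, 7.72 and 7.77 in controls. Dkk3, a divergent member of that family, read 8.10, 7.92 and 7.96 on the arrays labelled cKO and 8.10, 8.36 and 8.23 in controls, meeting them at 8.10 (change −0.24 ± 0.0965, adjusted p = 0.181). Dkk2 and Dkk4 had changes of −0.04 ± 0.0894 and 0.00 ± 0.123. Notum, the enzyme that removes the lipid from Wnt proteins, read 7.39, 7.33 and 7.31 on the arrays labelled cKO and 7.37, 7.72 and 7.60 in controls (change −0.22 ± 0.104, adjusted p = 0.244). Wif1, a secreted Wnt-binding protein, read 7.39, 7.27 and 7.37 on the arrays labelled cKO and 7.37, 7.40 and 7.51 in controls (change −0.08 ± 0.0771, adjusted p = 0.556).

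For the 43 members that did not pass, the intervals limit what could have been missed on this scale. The 95% interval of the change, not adjusted for the number of genes, lay within 1.5-fold in either direction for 37 of them and within 2-fold for 42. The 6 with a wider interval than 1.5-fold were Wnt1, Wnt4, Fzd5, Fzd7, Znrf3 and Sfrp1, and Sfrp1 alone reached beyond 2-fold. No detection call was used here, and a probe set that reads only background gives a narrow interval too, so these intervals do not show that a transcript was present at a steady level.

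**Figure D3:**
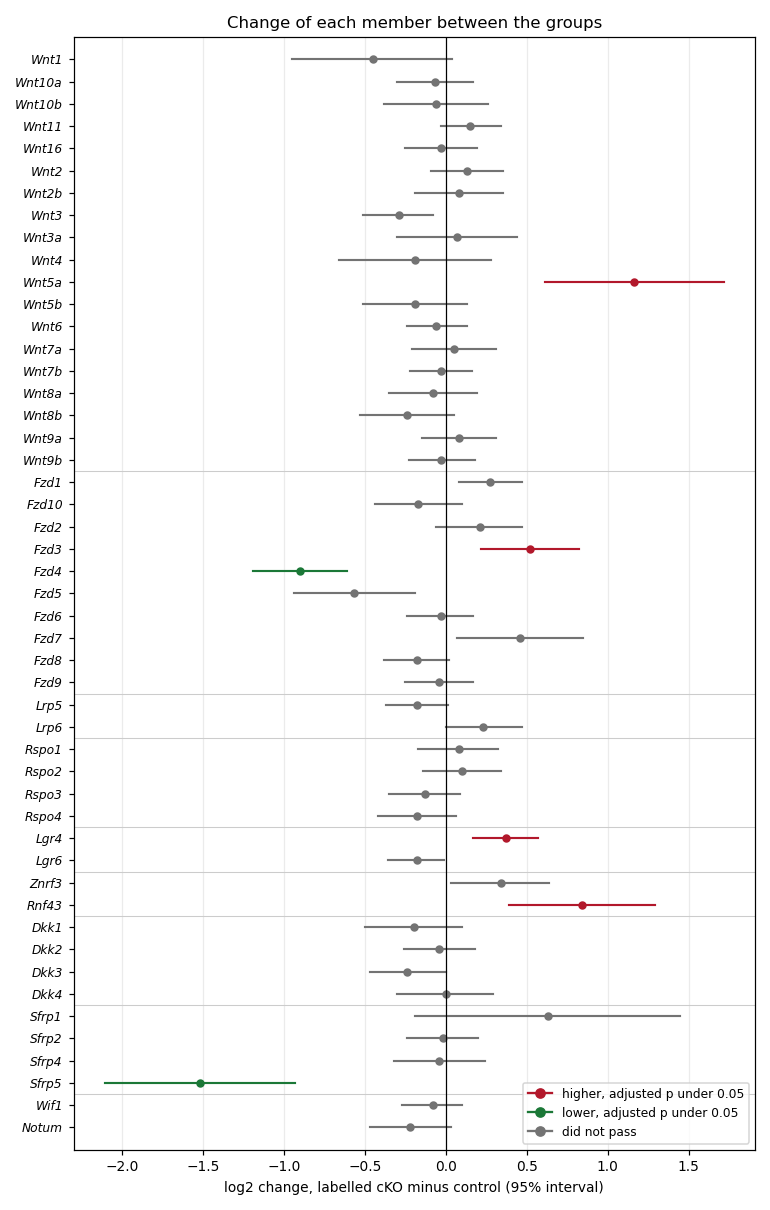
Log2 change of each member, arrays labelled cKO minus controls (points), with its 95% interval from limma (lines), n = 3 arrays in each group, ordered by role. Red marks the 4 rises and green the 2 falls past the threshold; the intervals of most of the 43 grey members span 0, and that of Sfrp1 (−0.19 to 1.45) is the widest of them.

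Genes acting before and after the members were described from lists chosen with results of these data known, which therefore are no independent evidence. The 12.9% of all genes called takes in genes of every level. With the lower tertile of genes by mean level left out, 21.7% of the 13284 genes tested were called. Above the median level of all genes were 100% of the secretion, 87.5% of the cascade, 83.3% of the nuclear and 72.2% of the target genes. No share was taken over genes of like level. In Wnt secretion, 2 of 7 genes rose and 2 fell, a called share of 57.1% beside the 12.9% of all genes. Wls, the carrier that takes Wnt proteins to the surface, read 9.76, 9.66 and 10 on the arrays labelled cKO, far above the 8.42, 8.34 and 7.94 of the controls (change 1.57 ± 0.155, 2.98-fold higher, adjusted p = 0.00164). Porcn, which adds the lipid to Wnt proteins, read 8.59, 8.76 and 8.61 on the arrays labelled cKO and 7.99, 8.0 and 8.12 in controls (change 0.62 ± 0.0827, adjusted p = 0.00516). Both calls were kept with any 1 array left out. The falls were those of Vps29 (−0.49 ± 0.0726) and Vps26a (−0.51 ± 0.107), subunits of the retromer that recycles Wls, and the Vps26a call was lost without cKO 3 or any 1 control array.

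Among 24 further coreceptors and surface modulators 5 rose and 1 fell, a called share of 25% beside the 12.9% of all genes. Tspan12, the tetraspanin that assists Fzd4 in Norrin signalling, read 10.07, 10.15 and 10.07 on the arrays labelled cKO and 8.35, 8.29 and 7.79 in controls. It was higher by 1.95 ± 0.155 (3.87-fold, adjusted p = 0.000822), opposite in direction to Fzd4, whereas Ndp, the gene of Norrin, did not pass (−0.11 ± 0.114). Ror2, a coreceptor for WNT5A, read 8.88, 8.72 and 8.92 on the arrays labelled cKO, against 9.39, 9.54 and 9.69 on the controls. It fell by 0.70 ± 0.105 on the log2 scale (adjusted p = 0.00787), while Wnt5a rose. Ptk7, a pseudokinase of planar polarity, rose by 0.62 ± 0.0923 and the glypican gene Gpc6 by 0.85 ± 0.128, and the calls of Tspan12, Ror2, Ptk7 and Gpc6 were kept with any 1 array left out. The other rises were Lgr5 and, named after its values were seen, Igfbp4, a secreted IGF-binding protein (1.69 ± 0.399, adjusted p = 0.0406). Igfbp4 read 9.30, 10.72 and 9.45 on the arrays labelled cKO and 8.05, 7.81 and 8.55 in controls, with cKO 2 highest and no overlap between the groups. Its call was lost without cKO 3, control 1, control 2 or control 3 and kept without both cKO 2 and control 3 (1.45, adjusted p = 0.0056). Of 15 planar polarity genes 2 rose and 0 fell, a called share of 13.3%, near the 12.9% of all genes. Celsr1, a cadherin of that pathway, rose by 1.92 ± 0.12 (adjusted p = 0.000354), with 9.65, 9.32 and 9.73 on the arrays labelled cKO and 7.65, 7.70 and 7.59 in controls. Vangl1 rose by 0.44 ± 0.0909 (adjusted p = 0.0253), but did not pass without cKO 1, cKO 2, control 1 or control 3.

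Of 24 genes of the intracellular cascade 1 rose and 2 fell, a called share of 12.5% beside the 12.9% of all genes. The median change was 0.01, and groups did not overlap for 41.7% of the list, against 32.6% of all genes. Ctnnb1, beta-catenin, read 12.47, 12.36 and 12.46 on the arrays labelled cKO and 12.34, 12.46 and 12.35 in controls, a change of 0.05 ± 0.0751. Tnks, a tankyrase that destabilises Axin, fell by 0.48 ± 0.0669 on the log2 scale (adjusted p = 0.00582). Dvl2, a Dishevelled gene, changed by −0.34 ± 0.0646 and the casein kinase gene Csnk1a1 by 0.33 ± 0.0744, and both calls were lost on leaving out any 1 array. Of 12 measured genes of the nuclear TCF complex, Tcf7l1 rose (1.06 ± 0.183), as did the coactivator gene Bcl9 (0.53 ± 0.113), and the corepressor gene Tle3 fell (−0.84 ± 0.131). The called share of this list was 25%, beside the 12.9% of all genes. The Tle3 call was kept with any 1 array left out, the Tcf7l1 call was lost without control 1 or control 2, and the Bcl9 call without cKO 1, cKO 3, control 2 or control 3.

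Of 18 measured genes known as Wnt targets in the gut, 5 rose and 1 fell, a called share of 33.3% beside the 12.9% of all genes. The median change of the list was 0.23. Cd44 (2.05 ± 0.181) and Ccnd1, cyclin D1 (1.25 ± 0.171, 11.25, 10.90 and 10.96 on the arrays labelled cKO against 10.08, 9.80 and 9.49 on the controls), kept their calls with any 1 array left out. Sox9, a progenitor transcription factor, rose by 1.12 ± 0.213, a call lost without cKO 1, cKO 3 or control 2. Lgr5 and Rnf43, described above, were the other rises, and the fall was that of the receptor kinase gene Ephb3 (−0.33 ± 0.0648), kept among the fits with 1 array left out only without cKO 2. Axin2, the most general target of beta-catenin signalling, read 8.79, 8.47 and 8.65 on the arrays labelled cKO and 8.89, 8.88 and 8.37 in controls. Its groups overlapped fully and the change was −0.08 ± 0.166 (adjusted p = 0.821). The number of targets called was 2 without cKO 1, cKO 3 or control 2, against 6 with all arrays. These counts do not show whether Wnt signalling was higher or lower.

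**Figure D4:**
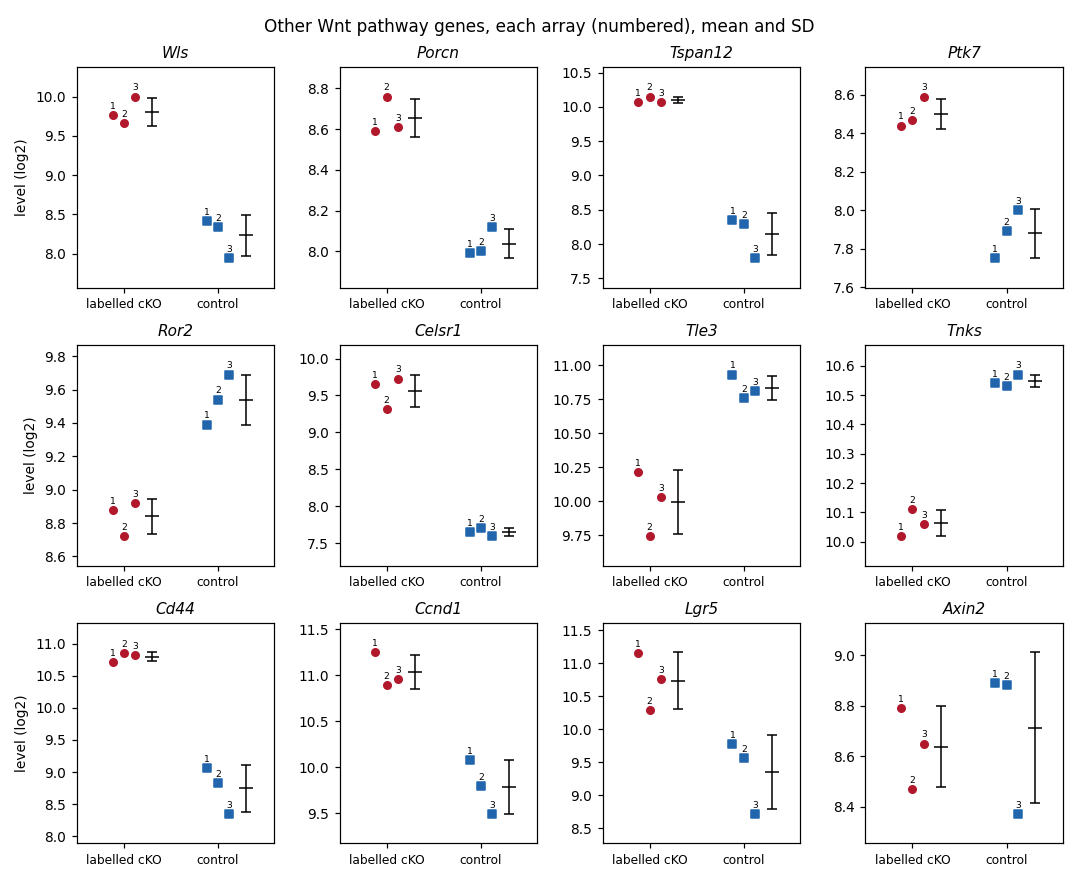
Log2 levels of 12 other Wnt pathway genes, with 1 numbered point per array (red circles, labelled cKO, left; blue squares, control, right) and mean ± SD of 3 arrays; the vertical axes differ and do not start at 0. Wls, Tspan12, Celsr1 and Cd44 are higher on all arrays labelled cKO, Ror2, Tle3 and Tnks are lower, and Axin2 overlaps between the groups.

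**Figure D5:**
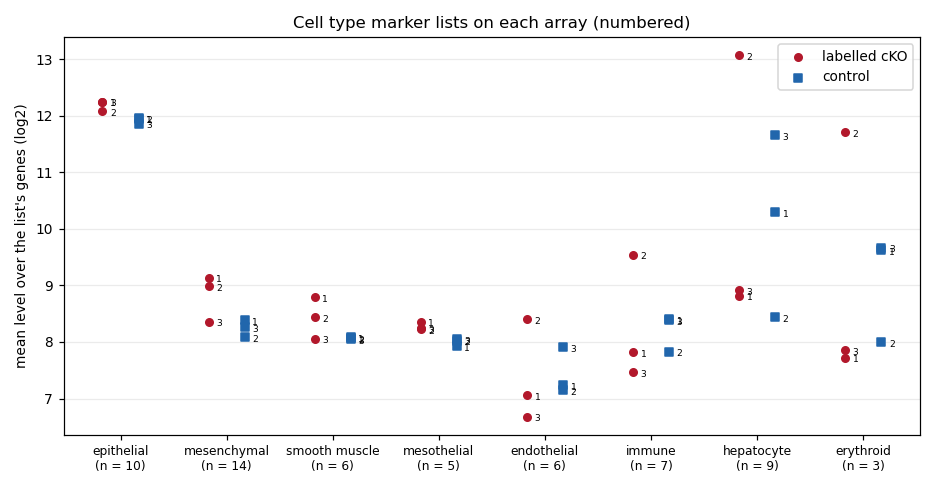
Mean log2 level of cell type marker lists on each array (numbered; red circles, labelled cKO; blue squares, control), with the number of genes measured in each list. Array cKO 2 and control 3 are highest of their groups in hepatocyte markers (13.07 and 11.66), and the mesenchymal mean is 9.14, 8.99 and 8.36 on the arrays labelled cKO against 8.39, 8.08 and 8.26 on the controls.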

How the data were processed

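The authors deposited a log2 level for each of 35512 probe sets on 6 arrays. They used dChip, per the series' design text. Its version, background correction, normalization and model are not stated there. The log2 scale was read from the values (0 to 14.25), array medians were 7.73 to 7.84, and the centring is unknown. Genes were named from the platform annotation: 21789 probe sets had 1 gene, 1621 several and 12102 none, and only the first were used. Gene IDs matched RefSeq (GRCm38.p6) for 21698 of these. For 999 genes with several probe sets, the probe set of highest mean level was used. No member's probe set read 0 on any array.

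Groups came from the source names. All 19938 genes were fitted in R 4.3.3 by limma 3.58.1 (two-sided moderated test from lmFit and eBayes, without covariates or filters), with Benjamini-Hochberg adjustment at 0.05, and the procedure was tested on simulated data. Fold changes are log2 changes put back on the linear scale. No 2 arrays held the same values. Precision is limited by the number of arrays.

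The members and lists were chosen with earlier results of these data known. All members are accounted for, those past the threshold and the 2 brightest of each role with the value on every array. Of each other list at most 4 genes past the threshold are named, by adjusted p, plus Axin2, Lgr5, Ctnnb1, Porcn and Wls. Other genes are said to be picked after their values were seen, or are given as partners of a member. Tcf7 and Ephb2, which belong to the nuclear and target lists, are not analysed here.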

Additional observations from a re-analysis of the deposited data

How the results depend on the processing

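Alternatives were quantile normalization, centring of arrays on their median, leaving out the lower tertile of genes by mean level, an eBayes with trend and robust options, weights per array, a replicate block, averaging a gene's probe sets, raising log2 values below 5 to 5, each array left out, and cKO 2 and control 3 both left out. The falls of Sfrp5 and Fzd4 passed in each of these that tested them. Sfrp5, Wnt5a and Fzd3 were among the genes that the filter on dim genes left out. Leaving out 1 array gave 0 to 3 members higher, 2 to 3 lower, 1482 to 2281 genes called in all and 2 to 6 targets called. Without both cKO 2 and control 3, 2 members were higher and 1586 genes were called, and with values below 5 raised to 5, 2 members were higher. No label says that replicate numbers pair the samples. The deviations of same-numbered arrays from their group means correlated at −0.0153, −0.425 and −0.184 across genes, and those of differently numbered arrays at −0.304 to 0.357. With cKO 2 and control 3 standing apart in hepatocyte markers, these correlations cannot decide whether the numbers pair the samples. With the replicate block 1 member (Wnt5a) was higher, 2 were lower, 1449 genes were called in all and 2 targets were called. Fzd5 passed with the filter on dim genes, trended eBayes and array weights, and Fzd1 with that filter. Centring on the median cost the Lgr4 call. No called member changed sign. Among those that did not pass, the sign turned without both cKO 2 and control 3 for Wnt10a (0.01), Wnt8a (0.03), Fzd9 (0.02), Dkk2 (0.02), Sfrp2 (0.02) and Sfrp4 (0.12).

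With 1 array left out, changes crossed 0 for the genes that follow, in none of which the change passed. The ranges were −0.14 to 0.02 for Wnt10a, −0.18 to 0.06 for Wnt10b, −0.09 to 0.02 for Wnt16, −0.01 to 0.19 for Wnt2b, −0.10 to 0.17 for Wnt3a, −0.34 to 0.03 for Wnt4, −0.04 to 0.11 for Wnt7a, −0.07 to 0.01 for Wnt7b, −0.16 to 0.03 for Wnt8a, −0.08 to 0.02 for Wnt9b, −0.08 to 0.02 for Fzd6, −0.12 to 0.01 for Dkk2, −0.12 to 0.09 for Dkk4, −0.11 to 0.02 for Sfrp2, −0.09 to 0.08 for Sfrp4 and −0.25 to 0.01 for Axin2.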

Other observations

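Of the 49 members, 8 Wnt genes form 4 pairs of direct neighbours in the RefSeq order of protein-coding genes. The changes were −0.06 and −0.07 for Wnt6 and Wnt10a on chromosome 1, 0.07 and 0.08 for Wnt3a and Wnt9a and −0.03 and −0.29 for Wnt9b and Wnt3 on chromosome 11, and −0.06 and −0.45 for Wnt10b and Wnt1 on chromosome 15, none of which passed. Wnt4 was the 1 member with a further probe set. That probe set read 7.93, 8.02 and 7.98 on the arrays labelled cKO and 7.76, 7.99 and 7.97 in controls, a change of 0.07 ± 0.0878, whereas the probe set used gave −0.19 ± 0.195, and neither passed.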
